A study of Mus musculus with 2 samples.

Results

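The 1068 cells described here are the 5% with the highest immediate-early score among the 21361 quality-filtered cells of 1 single-cell library. The score, E, is the number of unique molecular identifiers (UMIs, which count captured mRNA molecules) from 8 genes (Egr1, Fos, Fosb, Jun, Junb, Atf3, Ier2 and Ier3) per 10000 UMIs of the cell. The members were thus chosen by measured values, and their levels of those 8 genes describe the choice and support nothing else. The other 20293 cells were the comparison.

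Immediate-early genes are transcribed within minutes of a growth-factor or stress signal, by factors already present in the cell, among them SRF with its ternary complex partners and CREB. FOS and JUN proteins pair into the transcription factor AP-1, which acts on a later wave of genes. Phosphatases and mRNA-decay factors of the early wave then help to end the response. The ERK pathway, which is active in many pancreatic tumours, induces many of these genes.

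The cells came from KPCY 6419c5, a mouse line of pancreatic ductal adenocarcinoma, which as background carries mutant Trp53 and a yellow fluorescent reporter under a pancreas-directed Cre. Clones 76 and 84 carried the lineage recorder BASELINE, built on the adenine base editor Cas12a-ABE, and had been edited for 19 days. Equal numbers of both were mixed, strained, spun down and resuspended before 1 droplet 3′ v4 library was made. Neither an unedited or untreated control nor an assignment of cells to clones was used. Not analysed here was a further sample that mixed clones 1, 32, 33, 52 and 76.

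The library held 22178 barcodes. Barcodes under 2000 UMIs, under 1000 genes or over 15% mitochondrial UMIs were left out, and the kept cells had a median of 4953 UMIs (2012 to 23576). The library is 1 sample and cells are not replicates, so no test, p-value or standard error is given. Levels are CPM, UMIs summed over the cells of a set and scaled to the set's total, and ratios and shares carry exact 95% intervals that cover counting error only. Clustering without the listed genes gave 5 clusters, which were then merged by similarity to 2 expression groups, a number that was set and not found. The groups are not called clones: group 1, with more Pde10a mRNA, of 10332 cells, and group 2 of 11029 cells. Of the kept cells 774 were marked as doublets and retained, and 68.9% of the 966 barcodes of cluster 5, in group 2, were marked.

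Members and other cells alike had the keratins of pancreatic epithelial tumour cells. The 8 epithelial markers summed to 7275 CPM in members and 5211 CPM in other cells, which was 3253 against 2710.3 CPM in group 1 and 7917 against 7285 CPM in group 2. Markers of other cell types were low in both sets: the 10 immune genes summed to 1.26 against 2.33 CPM, with Lyz2, Csf1r and Cd3d at 0 in members. The 7 fibroblast genes summed to 1.26 against 1.47 CPM, and the 6 endothelial genes to 10.6 against 20.4 CPM, nearly all from Egfl7 (9.57 against 19.6 CPM). Acinar genes summed to 5.78 against 9.33 CPM, endocrine and neuroendocrine genes to 0.902 against 0.663 CPM and erythroid genes to 3.97 against 2.13 CPM. No cell type that should lack the early genes was present, so the part of free RNA in the shares of cells below was not measured.

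The score was continuous, and the members are its upper range rather than a separate population. Median E was 15.6 in members and 3.41 in other cells, and 4368 cells (20.4%) had no score-gene UMI. The lowest members had E of 12.9855 and 12.987, and the highest other cells 12.9807 and 12.9744. A member held a median of 8 score-gene UMIs (3 to 122), and other cells a median of 2. In 461 members (43.2%) and 817 other cells, 1 UMI decided the side of the line. E was at least 20 in 184 cells, at least 30 in 37 and at least 50 in 9, and the 3 highest values were 248, 119.9 and 84.0.

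**Figure D1:**
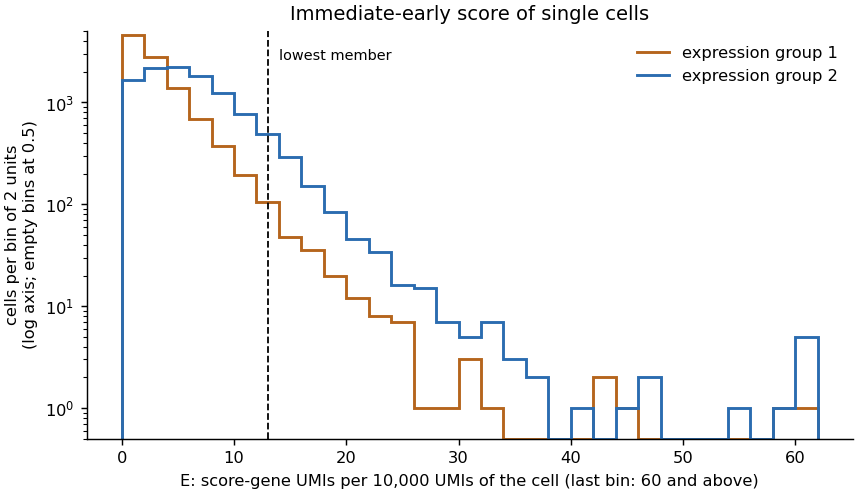
Cells per bin of 2 units (log axis, empty bins drawn at 0.5) against E, for expression groups 1 and 2, with the lowest member marked by the dashed line and the last bin holding E of 60 and above. Group 2 lies to the right of group 1 (median E 5.46 against 2.26), and neither curve has a gap at the line.

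The 5 markers of the label (Egr1, Fos, Atf3, Junb and Ier2) were seen together in a minority of members. At least 3 of them had a UMI in 282 members (26.4%) and 661 other cells (3.26%). All 5 had one in 12 members and 1 other cell, and none in 7 members and 7153 other cells. Of the members' 9822 score-gene UMIs, Ier3 gave 37.7% and Junb 34.6%, while Ier2 gave 9.95%, Atf3 4.71%, Jun 4.64%, Fos 3.94%, Egr1 3.93% and Fosb 0.560%. Ier3 had the most UMIs of the 8 in 434 members, Junb in 380, Ier2 in 47 and one of the other 5 genes in 48, with ties in 159. The members are therefore, for the most part, cells high in Junb and Ier3, and the name of early stress cells by all 5 markers holds for few of them.

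By shares of cells, Junb, an AP-1 subunit, had a UMI in 91.9% of members and 44.9% of other cells. Ier3, an early gene linked to cell survival, had one in 90.6% and 45.7%, and Ier2, a nuclear early gene, in 56.5% and 29.6%. For the AP-1 subunits Jun, Fos and Fosb the shares were 30.7% and 10.1%, 24.1% and 5.45% and 4.40% and 0.749%. For Atf3, a stress-induced ATF factor, they were 19.7% and 5.90%, and for Egr1, a zinc-finger factor, 11.8% and 4.07%. With every cell thinned to 3000 UMIs, which left out 81 members and 921 other cells, they were 82.4% and 31.4% for Junb, 83.7% and 31.8% for Ier3, 39.9% and 18.6% for Ier2, 19.8% and 5.88% for Jun, 15.9% and 3.15% for Fos, 13.0% and 3.34% for Atf3 and 8.81% and 2.29% for Egr1. Members of group 1 had Ier2 and Egr1 more often than those of group 2 (75.1 against 52.6% and 23.2 against 9.47%), and Junb less often (79.6 against 94.4%). Thinned to 3000 UMIs, Ier2 was seen in 66.4 against 35.5%, Egr1 in 20 against 6.97% and Junb in 75% (67.0 to 81.9) against 83.6% (80.9 to 86.0), where the Junb intervals overlap.

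In summed levels, Ier3 was at 667 against 147 CPM and Junb at 614 against 146 CPM in members and other cells. Ier2 was at 176 against 68.9 CPM, Atf3 at 83.6 against 11.9 CPM and Jun at 82.3 against 21 CPM. Fos was at 69.8 against 11.4 CPM, Egr1 at 69.7 against 8.21 CPM and Fosb at 9.93 against 1.41 CPM. Egr1 was concentrated in few cells: 1 member held 101 of its 386 member UMIs, 10 members held 55.2%, and without the first its ratio of 8.49 was 6.27. For Junb the 10 highest members held 4.29%.

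Read apart from the choice, each score gene was still higher in cells chosen on the others. Cells were ranked on 7 of the genes and the gene left out was read. The top 5% then had 6.37 times the Egr1 of the rest (56.5 against 8.86 CPM), and the ratio was 4.76 for Atf3, 4.51 for Fosb, 3.38 for Fos, 2.40 for Jun, 2.09 for Junb, 1.94 for Ier3 and 1.38 for Ier2. All 8 ratios were above 1 in each expression group, for example 10.97 in group 1 and 2.15 in group 2 for Fos, and 3.24 and 1.56 for Junb.

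A random division of each cell's UMIs into portions A and B separated the choice of cells from the reading. The top 5% by portion A had 2046 CPM of the 8 genes in that portion and 1133 CPM in portion B, where other cells had 448 CPM. The ratio in portion B was 2.53 (2.44 to 2.63), with 3.61 (3.28 to 3.96) in group 1 and 1.97 (1.89 to 2.06) in group 2. By gene it ran from 1.48 for Ier2 to 6.99 for Egr1, with 5.00 for Atf3, 2.65 for Ier3 and 2.40 for Junb. Of 1068 cells in the top 5% by portion A, 242 (22.7%) were also in the top 5% by portion B.

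**Figure D2:**
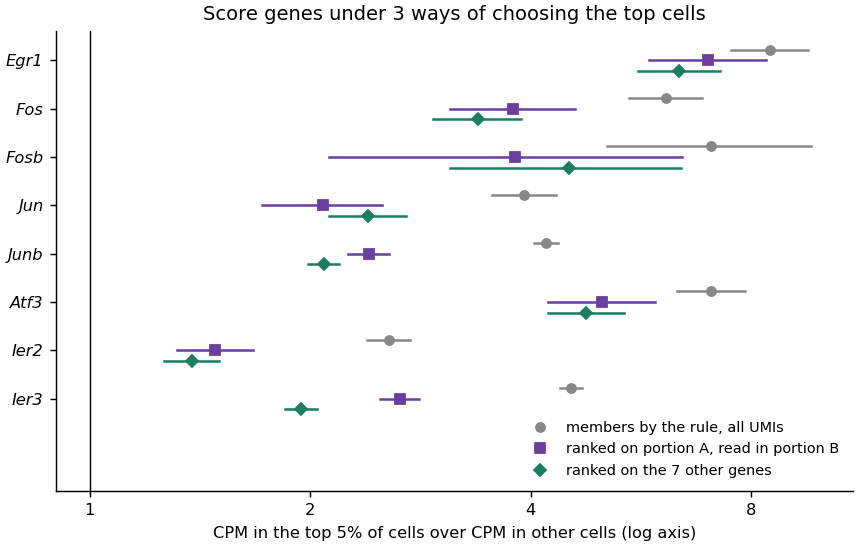
Ratio of CPM in the top 5% of cells over other cells (log axis) for each score gene with 95% counting intervals: members by the rule (circles), cells ranked on portion A of the UMIs and read in portion B (squares), and cells ranked on the 7 other genes (diamonds). The squares and diamonds lie below the circle for every gene and above 1, from 1.38 for Ier2 to 6.99 for Egr1.

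Most members were of expression group 2. Group 1 made up 16.9% of members (181 cells; 14.7 to 19.3%) and 50.02% of other cells, and 1.75% of group 1 cells and 8.04% of group 2 cells were members. Cluster 1, led by Cdkn1a, Tm4sf5 and Sfn in group 2, gave 814 members, 9.72% of its cells. Cluster 3, led by Tm4sf20, Epcam and S100g in group 1, gave 127 (3.42%), and cluster 2, led by H2ac8, Rspo3 and Ptchd4 in group 1, gave 54 (0.816%). Cluster 4 of group 2, led by the mitotic genes Cenpf, Aspm and Kif20b, gave 52 (3.08%), and cluster 5 gave 21 (2.17%). The share depended on the score genes used. With Junb and Ier3 left out of the score, an alternative chosen after seeing the data, the top 5% shared 358 cells with the members (33.5%), and group 1 made up 52.5% of it.

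Members were somewhat shallower than other cells of their group. Median UMIs were 3770 against 4520 in group 1 and 4993 against 5425 in group 2. Median mitochondrial shares were 3.45 against 3.18% in group 1 and 1.93 against 1.93% in group 2. Marked doublets made up 0.843% of members and 3.77% of other cells. From the shallowest to the deepest of 4 equal parts of all cells by UMIs, 5.41, 5.37, 5.19 and 4.03% were members. With marked doublets removed, or with mitochondrial UMIs left out of the totals, all 142 named genes with a ratio kept it within its counting interval, and with every cell thinned to 3000 UMIs 106 of 139 did. Only 616 of the 1018 cells chosen after thinning were members by the rule.

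Outside the score, few genes differed by 2-fold, and most of those also differed between the groups. Of 8229 genes with at least 10 CPM over all kept cells, 35 (0.425%) were at least 2-fold higher in members and 123 (1.49%) at least 2-fold lower, each with a counting interval on 1 side of no change. Among other cells, 31 of the 35 were at least 2-fold higher in group 2 than in group 1, and 119 of the 123 at least 2-fold higher in group 1. Group 2 gave 86.2% of the members' UMIs and 54.7% of those of other cells, so a gene found in 1 group alone, and level within it, would be 1.58-fold higher if of group 2 and 0.304-fold if of group 1. Within group 2, the ratios of the 35 higher genes were between 1.29 and 2.85. The 10 lowest ratios belonged to Galnt18, Rasip1, Mctp1, Ptchd4, Ildr1, Zfp40, Plcb1, Ror2, Arhgap15 and Cttnbp2, from a log2 of -2.30 for the glycosyltransferase gene Galnt18 to -1.89 for Cttnbp2. With Junb and Ier3 left out of the score, 7 of the 10 (Rasip1, Mctp1, Zfp40, Plcb1, Ror2, Arhgap15 and Cttnbp2) had log2 ratios above 0, the highest 0.26 for Mctp1. Galnt18 was at 17.1 against 84.3 CPM over all cells and at 108 against 171 CPM in group 1 and 2.72 against 12.2 CPM in group 2, and Ptchd4 at 20.9 against 82.6 CPM over all cells and 109 against 165 CPM in group 1 and 6.91 against 14.6 CPM in group 2. For most genes below, values within the groups therefore stand beside those over all cells, in the order members against other cells. In members 1 UMI is 1.31 CPM in group 1 and 0.209 CPM in group 2, so group 1 values rest on few UMIs. The other cells of group 2 include nearly all of the cluster in which most barcodes were marked as doublets. How much of their Galnt18 and Ptchd4 lay in that cluster was not tested, so lower levels outside it are not shown.

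Within group 1, 75 of 8291 genes (0.905%) were at least 2-fold higher in members and 139 (1.68%) lower, 92 of these with a counting interval below no change (1.11%). Within group 2, 5 of 7945 (0.0629%) were higher and 9 (0.113%) lower. Of 7469 genes tested in both, Ddit3 and Sprr1a (0.0268%) were at least 2-fold higher in each group, and 0 genes (0%) at least 2-fold lower in each. Dusp1, Cdkn1a and Btg2 were past 2-fold in each group too, but were under 10 CPM over the cells of 1 of them. The contrast in the score itself was smaller in group 2, at 1754 against 541 CPM of score genes, than in group 1, at 1889 against 265 CPM. A line set within each group, at its own top 5%, gave 19 genes at least 2-fold higher in group 1 and 13 in group 2.

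Among genes outside the score with at least 10 CPM over all cells, ranked by the lower of their ratios in the groups, the 10 highest were Sprr1a, Dusp1, Cdkn1a, Btg2, Ddit3, Sfn, Ppp1r15a, Rhob, Gdf15 and Gadd45b. The stretches before the start of 6 of them, and of the score gene Atf3, are shown because they hold a known site of the ATF, CREB, AP-1 or C/EBP families. Each is the 250 bases before the start, 5′ to 3′ on the gene's strand, from RefSeq on GRCm38.p6 (the counts were made on GRCm39). Capitals mark the cAMP response element TGACGTCA in Dusp1, Btg2 and Ppp1r15a, the AP-1 site TGANTCA in Sprr1a and Ddit3, and the C/EBP-ATF element TGATGNAAN, read on the other strand, in Sfn and Atf3.
Dusp1 (chr17:26508473-26508722, minus strand): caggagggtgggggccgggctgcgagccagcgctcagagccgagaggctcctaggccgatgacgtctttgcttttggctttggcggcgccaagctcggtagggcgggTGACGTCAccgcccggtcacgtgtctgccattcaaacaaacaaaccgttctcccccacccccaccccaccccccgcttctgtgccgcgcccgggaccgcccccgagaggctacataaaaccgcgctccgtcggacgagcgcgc
Btg2 (chr1:134079156-134079405, minus strand): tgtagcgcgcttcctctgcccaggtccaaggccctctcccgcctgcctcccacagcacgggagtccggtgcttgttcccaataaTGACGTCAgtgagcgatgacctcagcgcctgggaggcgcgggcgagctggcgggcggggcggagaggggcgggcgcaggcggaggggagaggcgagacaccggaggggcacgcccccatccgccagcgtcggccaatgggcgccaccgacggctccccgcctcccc
Ppp1r15a (chr7:45526269-45526518, minus strand): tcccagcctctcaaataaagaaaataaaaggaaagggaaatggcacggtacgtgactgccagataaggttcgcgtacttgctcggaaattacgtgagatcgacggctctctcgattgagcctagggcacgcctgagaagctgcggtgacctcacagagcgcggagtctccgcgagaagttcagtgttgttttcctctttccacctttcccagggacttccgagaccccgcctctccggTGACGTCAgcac
Sprr1a (chr3:92485882-92486131, minus strand): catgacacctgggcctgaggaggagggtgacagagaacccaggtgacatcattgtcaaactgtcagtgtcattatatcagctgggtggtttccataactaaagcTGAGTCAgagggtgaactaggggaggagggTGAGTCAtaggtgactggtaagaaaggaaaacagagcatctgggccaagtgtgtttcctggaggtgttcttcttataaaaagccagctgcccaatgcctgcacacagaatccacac
Ddit3 (chr10:127290543-127290792, plus strand): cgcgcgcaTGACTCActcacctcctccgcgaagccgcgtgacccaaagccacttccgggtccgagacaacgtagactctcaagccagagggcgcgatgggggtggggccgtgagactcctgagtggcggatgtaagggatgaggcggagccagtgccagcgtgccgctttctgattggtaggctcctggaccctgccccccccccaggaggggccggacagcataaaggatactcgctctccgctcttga
Sfn (chr4:133602169-133602418, minus strand): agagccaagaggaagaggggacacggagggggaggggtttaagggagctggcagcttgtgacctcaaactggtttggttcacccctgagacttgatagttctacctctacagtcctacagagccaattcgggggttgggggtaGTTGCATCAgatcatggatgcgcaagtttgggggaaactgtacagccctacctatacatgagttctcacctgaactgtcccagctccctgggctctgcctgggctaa
Atf3 (chr1:191183334-191183583, minus strand): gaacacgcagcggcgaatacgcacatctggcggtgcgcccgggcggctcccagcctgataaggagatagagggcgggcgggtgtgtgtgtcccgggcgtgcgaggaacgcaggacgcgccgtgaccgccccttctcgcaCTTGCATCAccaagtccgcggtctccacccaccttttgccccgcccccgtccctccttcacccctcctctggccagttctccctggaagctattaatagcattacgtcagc

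The first base of the match was at -143 in Dusp1, -166 in Btg2, -12 in Ppp1r15a, -146 and -116 in Sprr1a, -242 in Ddit3, -107 in Sfn and -111 in Atf3, counted from the start. Both strands were searched over 300 bases, from 250 before to 50 after the start. TGACGTCA was in 3 of the 10 promoters (30%), against 3.82% of the 6602 tested genes with a promoter and 1.79% of all 32851 promoters. Of the 35 genes higher over all cells, 28 had a promoter in the table, and TGACGTCA was in 1 of them (3.57%), Dusp1. TGANTCA, which TGACGTCA does not contain, was in 2 of the 10 (20%), against 5.77% of tested genes and 7.81% of all promoters. Among the 28, 5 (17.9%) held TGANTCA (Ddit3, Mmp13, Sprr1a, Tnfaip3 and Upp1) and 5 TGATGNAAN (Arid5a, Bcl2l15, Gadd45g, Sfn and Tnfaip3), which 2.54% of tested genes and 3.95% of all promoters held. TGATGNAAN was in 1 of the 10 (10%), Sfn, and the CArG box and the NF-kB site were in 0 of the 10. The NF-kB site was in 4 of the 28 (14.3%; Flnc, Gch1, Mal and Tnfaip3), against 6.18% of tested genes and 4.51% of all promoters. The CArG box was in 1 of the 28 (3.57%), Dusp5, against 1.62% and 1.63%. Of the score genes 6 of 8 had a promoter in the table, and besides the site in Atf3 the NF-kB site was in Ier3, Fos and Fosb, at -92, -214 and -188. A match describes letters and shows no binding.

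Sprr1a, a precursor of the cornified envelope of squamous cells, had the highest ratio over all cells among tested genes outside the score. It was at 264 against 61.1 CPM, 4.31-fold (log2 2.11, 2.03 to 2.19), and at 89.2 against 11.4 CPM in group 1 and 292 against 102 CPM in group 2. A UMI was seen in 23.9% of members and 10.2% of other cells, but 1 member held 211 of 1461 UMIs, and without that cell the ratio was 3.69. In group 1 it rested on 7 members, 1 of which held 33 of 68 UMIs, and without that cell the ratio of 7.79 was 4.05.

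Dusp1, a nuclear phosphatase that switches off p38, JNK and ERK, was at 34.7 against 10.3 CPM (3.38-fold; log2 1.76, 1.53 to 1.98). It was at 61.6 against 8.94 CPM in group 1 and 30.3 against 11.4 CPM in group 2 (log2 2.79, 2.32 to 3.22, and 1.42, 1.15 to 1.68). The ratio was between 2.34 and 5.74 in the 5 clusters, each with a counting interval above 1. Dusp1 had a UMI in 12.0% of members and 4.77% of other cells, so it was higher both in how many cells held it and in level.

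Ddit3, which encodes the stress factor CHOP downstream of ATF4, was at 50.9 against 20.1 CPM (log2 1.34, 1.16 to 1.52) and at 80.0 against 19.1 CPM in group 1 and 46.3 against 20.9 CPM in group 2. The log2 ratio was 2.06 (1.66 to 2.44) in group 1 and 1.15 (0.94 to 1.36) in group 2. Its ratio in the 5 clusters was between 2.01 and 6.36, each interval above 1. A UMI was seen in 12.5% of members and 8.86% of other cells, a smaller gap than in level. The 10 highest members held 35.8% of its member UMIs.

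Cdkn1a, the gene of the cell-cycle inhibitor p21, was at 48.0 against 13.0 CPM and at 13.1 against 2.45 CPM in group 1 and 53.6 against 21.7 CPM in group 2, with 10 UMIs behind the value for group 1 members. Cluster 1, which supplied most members, is itself led by Cdkn1a, and the ratio within it was 1.95 (1.69 to 2.25). In clusters 2 to 5 it was between 3.74 and 5.69, with an interval that spans 1 in cluster 2. Gdf15, a secreted stress cytokine, was mainly a gene of group 1, at 860.1 against 120.1 CPM in group 1 and 26.8 against 14.9 CPM in group 2. In group 1 it was 7.16-fold higher (log2 2.84, 2.72 to 2.96), 92 of 181 members had a UMI, and without 1 member that held 82 of 656 UMIs the ratio was 6.32. Over all cells Gdf15 was seen in a smaller share of members than of other cells, 13.6% and 17.1%.

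Btg2, an antiproliferative gene that promotes mRNA deadenylation, was at 64.2 against 18.8 CPM in group 1 and 16.7 against 6.82 CPM in group 2. Ppp1r15a, the gene of the phosphatase subunit GADD34 that restores translation after stress, was at 98.3 against 29.9 CPM in group 1 and 33.5 against 17.3 CPM in group 2. Gadd45b, which binds stress kinases, was at 45.9 against 14.0 CPM in group 1 and 63.0 against 35.4 CPM in group 2, and Rhob, a small GTPase, at 31.5 against 15.3 CPM in group 1 and 62.4 against 33.4 CPM in group 2. These 4 were 1.78- to 3.42-fold higher in members of either group. Within clusters the ratio was 0.533 (0.0639 to 1.97) for Ppp1r15a in cluster 4 and 0.532 (0.0133 to 3.04) for Btg2 in cluster 5. Intervals also included 1 for Btg2 in cluster 4 and for Gadd45b in clusters 4 and 5. In the remaining clusters the intervals of Btg2, Ppp1r15a and Gadd45b lay above 1. Sfn (14-3-3 sigma) was at 32.0 against 16.1 CPM in group 2 and had 3 UMIs in members of group 1.

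The remaining genes of the pooled top 10 were lower in ratio once compared within group 2. Trbc1, a constant-region gene of the T-cell receptor, was at 27.3 against 9.83 CPM over all cells and 31.4 against 17.3 CPM in group 2, while Cd3d was at 0 in members. The collagenase gene Mmp13 was at 65.2 against 27.1 CPM over all cells and 73.2 against 47.4 CPM in group 2 (in group 1 14.4 against 2.59 CPM, from 11 member UMIs), the basement-membrane collagen gene Col4a4 at 29.1 against 11.9 CPM and 33.7 against 21.2 CPM, and the BCL2-family gene Bcl2l15 at 29.1 against 11.6 CPM and 32.9 against 18.9 CPM. Tnfaip3, which encodes the NF-kB inhibitor A20, was at 28.2 against 11.8 CPM over all cells and 11.8 against 3.01 CPM in group 1 and 30.8 against 19.1 CPM in group 2. In group 2 these 5 ratios were between 1.55 and 1.82.

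Other immediate-early transcription factors, which the rule did not use, were higher in members by less. Of 23 listed, 14 reached 10 CPM, 0 were past 2-fold over all cells in either direction, and 11 had a ratio above 1. Their median log2 ratio was 0.63, beside -0.05 over all genes tested. In group 1 it was 0.43 (all genes 0.02), with 10 of 10 above 0 and 4 of 10 past 2-fold (all genes 0.905%). In group 2 it was 0.24 (all genes -0.01), with 0 of 14 past 2-fold (all genes 0.0629%). Maff, a small MAF factor, was at 34.1 against 12.1 CPM in group 1 and 29.5 against 18.5 CPM in group 2, and Klf2, a Kruppel-like factor of quiescence, was at 15.7 against 8.10 CPM in group 1 and 32.0 against 22.4 CPM in group 2. Its relative Klf10, induced by TGF-beta, was at 19.7 against 7.10 CPM in group 1 and 30.1 against 24.1 CPM in group 2. The inhibitors of differentiation Id1 and Id3 had log2 ratios of -0.57 and -0.56 over all cells, 0.31 and 0.25 in group 1, and -0.32 and -0.20 in group 2. Jund, an AP-1 subunit of steady expression, was lower over all cells (194 against 214 CPM) and higher in each group (374 against 302 CPM in group 1 and 165 against 140.0 CPM in group 2). The nuclear receptor gene Nr4a1, named after its values were seen, was at 34.1 against 8.94 CPM in group 1 and 8.16 against 7.77 CPM in group 2.

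Feedback regulators of MAPK signalling and mRNA-decay factors were higher in most cases. Of 21 listed, 18 reached the minimum, 15 had a ratio above 1 and 2 (Dusp1 and the ERK phosphatase gene Dusp5) were past 2-fold (all genes 0.425%), with a median log2 of 0.70 (all genes -0.05). In group 1 the median was 0.83 (all genes 0.02) with 5 of 14 past 2-fold (all genes 0.905%). In group 2 it was 0.39 (all genes -0.01) with 1 of 15 past 2-fold (all genes 0.0629%) and 15 above 0. Dusp5 was at 139 against 64.2 CPM over all cells and 11.8 against 5.73 CPM in group 1 and 159 against 113 CPM in group 2. Errfi1, an inhibitor of the EGF receptor, was at 316 against 109 CPM in group 1 and 361 against 276 CPM in group 2, and Phlda1 at 220.3 against 113 CPM in group 1 and 424 against 294 CPM in group 2. The receptor-signalling inhibitor Spry1 was lower over all cells (12.1 against 17.5 CPM) and at 34.1 against 26.9 CPM in group 1 and 8.58 against 9.66 CPM in group 2. Zfp36, the mRNA-decay factor tristetraprolin, named after its values were seen, was at 59.0 against 19.5 CPM in group 1 and 20.3 against 11.7 CPM in group 2.

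Secreted and adhesion genes of the early response had a median log2 ratio of 0.78 over the 12 of 18 at the minimum. It was 1.21 in group 1, with 6 of 9 past 2-fold (all genes 0.905%), and 0.37 in group 2, with 0 of 12 (all genes 0.0629%). Ptgs2 and Hbegf were among those past 2-fold over all cells. Ptgs2, the gene of cyclooxygenase 2, was at 234 against 106 CPM over all cells and 102 against 23.8 CPM in group 1 and 256 against 174 CPM in group 2. Of the EGF receptor ligand genes, Hbegf was at 108 against 35.2 CPM in group 1 and 225 against 161 CPM in group 2. Areg was at 155 against 47.3 CPM in group 1 and 478 against 405 CPM in group 2. A further ligand gene, Btc, was at 23.6 against 15.9 CPM in group 1 and 27.4 against 36.5 CPM in group 2, and Thbs1, a matrix glycoprotein gene, was lower over all cells (43.7 against 55.9 CPM) and higher in each group (152 against 100.05 CPM in group 1 and 26.4 against 19.3 CPM in group 2).

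Receptors, kinases and the SRF and CREB factors upstream of early genes were close to level. Of 23 listed, 18 reached the minimum and 0 were past 2-fold over all cells, or in either group among genes with at least 10 CPM in it, with median log2 ratios of -0.05, 0.06 and -0.03 over all cells, in group 1 and in group 2. Egfr was at 79.0 against 46.6 CPM over all cells, 90.2 against 81.5 CPM in group 2, and 9.18 against 4.55 CPM in group 1, from 7 member UMIs. Actin and cytoskeleton targets of SRF had a median of 0.20, with 0 of 9 past 2-fold over all cells. Acta2, smooth-muscle actin, was at 397 against 162 CPM in group 1 and 5.65 against 12.5 CPM in group 2. Of the other cells' Acta2 UMIs in group 2 most, 640, were in the doublet-like cluster 5 (38.6 against 80.7 CPM), while in cluster 1 Acta2 was 2.25-fold higher in members (1.33 to 3.65), as it was in clusters 2 (2.87-fold) and 3 (2.69-fold).

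**Figure D3:**
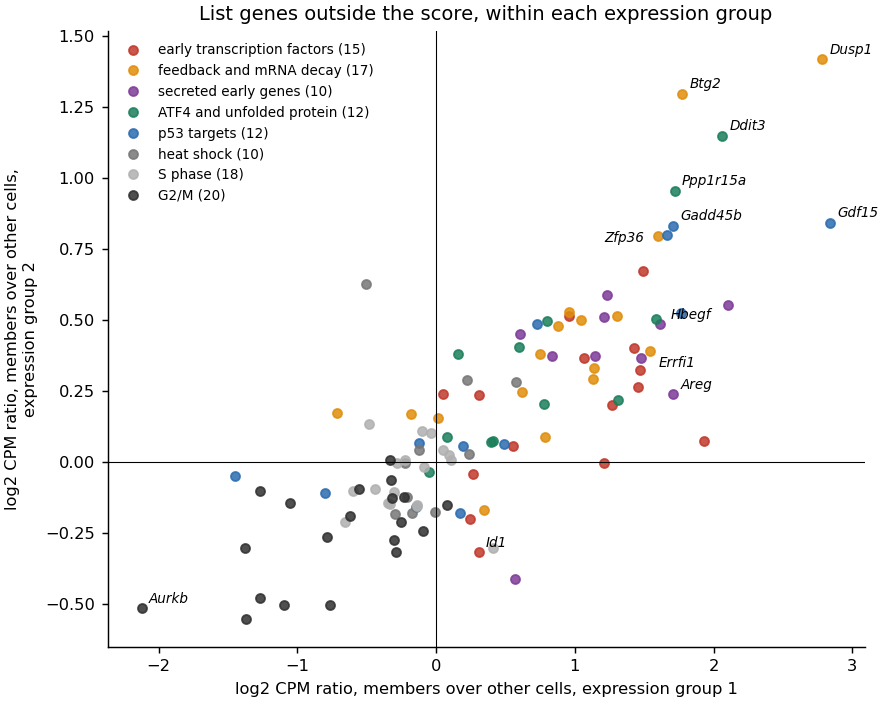
log2 CPM ratio of members over other cells in expression group 1 (horizontal) against group 2 (vertical) for 114 list genes outside the score, coloured by list, with the number of genes in brackets. Early, feedback, secreted and ATF4 genes lie mostly right of and above 0 (Dusp1 2.79 and 1.42; Gdf15 2.84 and 0.84), and G2/M genes mostly left of and below 0 (Aurkb -2.12 and -0.52).

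Of other stress programmes, the ATF4 and unfolded-protein list was higher by little over all cells and by more in group 1. All 11 of its genes at the minimum had a pooled ratio above 1, with a median log2 of 0.31 (0.60 in group 1 and 0.22 in group 2), and Ddit3 was the 1 past 2-fold over all cells. In group 1, 3 of 11 were past 2-fold higher (Ddit3, Ppp1r15a and the ATF-family gene Atf5, at log2 2.06, 1.72 and 1.31), beside 0.905% of all genes tested there. In group 2 it was 1 of 11, beside 0.0629%. Herpud1, of the degradation of misfolded proteins, was at 60.3 against 34.7 CPM in group 1 and 53.8 against 38.2 CPM in group 2, and the chaperone gene Hspa5 at 927 against 705 CPM in group 1 and 828 against 788 CPM in group 2. Of 13 p53 target genes at the minimum 5 were past 2-fold (Cdkn1a, Gadd45b, Gdf15, Pmaip1 and Gadd45g; Pmaip1 and Gadd45g, named after their values were seen, were at 25.6 against 11.9 CPM and 39.3 against 19.1 CPM, and within group 2 at ratios of 1.74 and 1.44), genes that other stress signals are also known to induce. Over all genes tested 0.425% were higher by the same fold. In group 1 the list's median log2 was 0.18, with 6 of 10 above 0, 2 past 2-fold higher and 1 past 2-fold lower (all genes 0.905% and 1.68%). In group 2 it was 0.28, with 1 of 12 past 2-fold, Cdkn1a (all genes 0.0629%). Bax, a pro-apoptotic gene, was at 264 against 291 CPM in group 1 and 177 against 198 CPM in group 2. Sesn1, a stress-response gene, was at 6.56 against 18.0 CPM in group 1, from 5 member UMIs, and 8.999 against 9.31 CPM in group 2.

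Heat-shock genes were close to level. Their median log2 ratio was -0.06 over all cells, with 0 of 11 past 2-fold, -0.12 in group 1 and 0.01 in group 2. Hspd1, a mitochondrial chaperonin, was at 1158 against 1421 CPM in group 1 and 1435 against 1629 CPM in group 2, and Dnajb1, an HSP70 partner, at 42.0 against 28.1 CPM in group 1 and 35.8 against 29.5 CPM in group 2. Hspa1b, the inducible HSP70 gene, also named after its values were seen, was at 19.7 against 27.9 CPM in group 1 and 17.8 against 11.5 CPM in group 2. Its value is uncertain, since the near-identical Hspa1a can take its reads. Oxidative-stress genes of NRF2 had a median of 0.03, with 0 of 6 past 2-fold, and the haem oxygenase gene Hmox1 was at 70.8 against 31.9 CPM in group 1 and 27.2 against 21.3 CPM in group 2. NF-kB targets had a median of 0.56, 0.56 in group 1 and 0.26 in group 2, and the chemokine gene Cxcl5 was lower over all cells (79.4 against 186 CPM) and at 372 against 353 CPM in group 1 and 32.6 against 48.3 CPM in group 2. Without Junb and Ier3 in the score its log2 ratio over all cells was 0.25.

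Mitotic genes were lower in members. Of 20 G2/M genes 19 had a pooled ratio below 1, with a median log2 of -0.35 and 0 past 2-fold. In group 1 the median was -0.59, with 7 past 2-fold lower, beside 1.68% of all genes tested there. In group 2 it was -0.23, with 0 past 2-fold lower, beside 0.113%. Top2a, a DNA topoisomerase, was at 245 against 636 CPM in group 1 and 479 against 592 CPM in group 2, and the mitotic kinase gene Aurkb at 9.18 against 39.9 CPM in group 1 and 20.3 against 29.0 CPM in group 2. Plk1, another mitotic kinase gene, was at 49.8 against 107 CPM in group 1 and 44.4 against 63.0 CPM in group 2. Cluster 4, the mitotic one, held 4.87% of members. Within clusters Aurkb differed less in group 2, with ratios of 0.789 (0.614 to 1.00), 1.04 and 1.03 in clusters 1, 4 and 5, where every interval includes 1, and 0.440 (0.161 to 0.960) in cluster 2 and 0.225 (0.00565 to 1.27) in cluster 3 of group 1. Top2a was lower in clusters 1 (0.940), 2 (0.761) and 3 (0.294) and had intervals including 1 in clusters 4 and 5, and for Plk1 the interval lay below 1 in cluster 2 alone (0.460). Cluster 3 supplied 127 of the 181 members of group 1, and its other cells had less Top2a than those of cluster 2 (155 against 842 CPM). How far this mix of clusters lowers the group 1 values was not tested. S-phase genes differed less, with medians of -0.17 over all cells, -0.22 in group 1 and -0.02 in group 2.

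The highest cells were not alike in the gene that led them. The first, of 4923 UMIs, held 101 of Egr1 among 122 score-gene UMIs, with 7 of Jun, 7 of Junb, 4 of Atf3, 2 of Fos and 1 of Ier3. The second held 45 of Egr1 and 18 of Atf3, and the third, of group 1, 18 of Ier3 and 16 of Junb with 0 of Egr1. Cells 4 and 5 in rank held 18 and 14 of Atf3, and 17 and 19 of Ddit3. Of the 20 highest cells 0 were marked as doublets, and their mitochondrial share was between 0.371 and 4.48%.

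**Figure D4:**
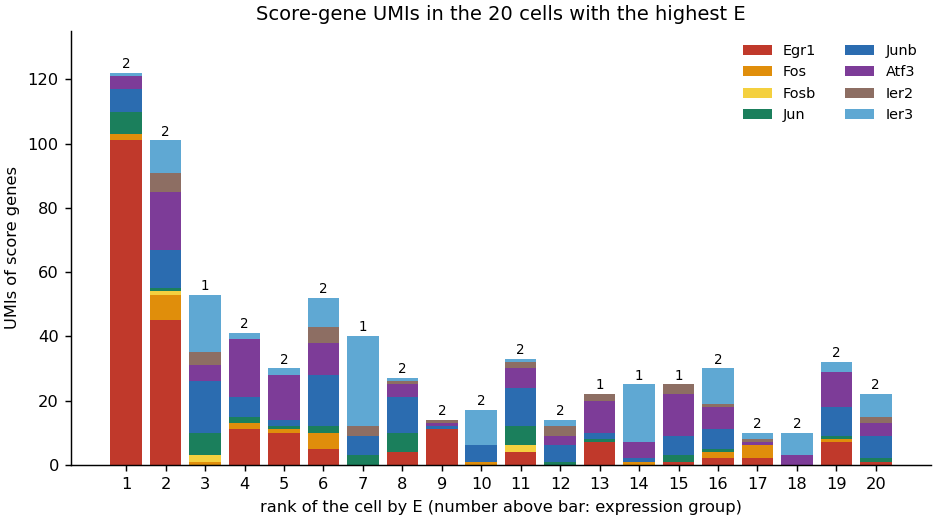
UMIs of the 8 score genes (stacked) in the 20 cells of highest E, by rank, with the expression group above each bar. Egr1 makes up 101 of 122 UMIs in the first cell, and Atf3 leads in cells 4, 5, 13, 15 and 19, Ier3 in cells 3, 7, 10, 14, 16 and 18.

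P2rx7, Vgf and Ubash3a, singled out for these cells from earlier results of the same data, were all far below 10 CPM. P2rx7, an ATP-gated ion channel gene, had 30 UMIs in 9 members and 46 UMIs in 30 other cells. Its level was 5.41 against 0.418 CPM, 13.0-fold (log2 3.69, 2.98 to 4.39). Of the 30 UMIs, 1 member held 9, without which the ratio was 9.07, and 1 other cell held 10. All 9 members were of group 2, where the level was 6.28 against 0.649 CPM (9.68-fold, and 6.78-fold without that member). In group 1, 0 of 181 members had a UMI. A limit of 3 counts puts the share of cells with a UMI there at up to 1.66% and sets no limit on cells that express the gene.

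Vgf, a secreted peptide precursor of neuroendocrine cells, had 20 UMIs in 8 members and 35 UMIs in 33 other cells, 3.61 against 0.318 CPM (11.3-fold; log2 3.50, 2.63 to 4.34). The Egr1-rich first cell held 10 of the 20, and without it the ratio was 5.68. Within group 2 it was at 3.98 against 0.532 CPM (7.47-fold), and 3.54-fold (1.49 to 7.596) without that cell. Ubash3a, a T-cell signalling gene, had 7 UMIs in 6 members and 217 UMIs in 198 other cells. It was not higher in members, at 1.26 against 1.97 CPM (log2 -0.64, -1.97 to 0.42) and 1.47 against 1.43 CPM in group 2. Thus P2rx7 and Vgf were higher in members on few cells, and Ubash3a was not. Of 10 cells with at least 3 UMIs of P2rx7 and Vgf together 7 were members, 5 stood among the 200 highest by E, and all 10 were of group 2.

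Within the members, those led by Egr1, Fos, Fosb, Jun or Atf3 stood apart in some genes outside the score and not in others. This class of 48 cells, 12 of them of group 1, was defined after values were seen. It held 17 of the 20 Vgf UMIs and 14 of the 30 P2rx7 UMIs of members. Ddit3 was at 477 CPM in it (391.9 to 575), 29.5 CPM in members led by Junb, 37.8 CPM in those led by Ier3 and 20.1 CPM in other cells. Cdkn1a was at 286, 30.5, 51.2 and 13.0 CPM in the same order. Gadd45b was at 290.4, 46.1, 58.4 and 25.7 CPM, and Ppp1r15a at 173, 36.1, 34.0 and 23.0 CPM. All 4 genes were thus higher in this class, both groups together, than in members led by Junb or Ier3. Its level for Cdkn1a was 349 CPM in group 2 and 75.7 CPM in group 1 (20.6 to 194), from 4 UMIs. For Gadd45b it was 349 CPM in group 2 and 94.6 CPM in group 1 (30.7 to 221), from 5 UMIs. Both group 1 intervals include the levels in members led by Junb and Ier3. For Ppp1r15a it was 151 CPM in group 1 (65.3 to 298), an interval that includes the 98.3 CPM of all group 1 members. Few cells held much of this: without the 3 cells with most UMIs of the gene, which held 47 of 110 for Ddit3, 30 of 66 for Cdkn1a, 39 of 67 for Gadd45b and 13 of 40 for Ppp1r15a, the levels were 297 CPM (228 to 379), 169 CPM (119 to 235), 131 CPM (87.3 to 190) and 131 CPM (86.2 to 190). Over both groups all 4 then still stood above members led by Junb or Ier3. The class did not stand above members led by Ier3 in Sprr1a (373 against 412 CPM) or Ptgs2 (282 against 278 CPM). For Nfkbia its level was 91.0 CPM (56.4 to 139), against 73.5 CPM in those led by Ier3. Without the 3 cells with most UMIs of the gene, Dusp1 was at 47.7 CPM (22.9 to 87.7), against 37.0 CPM in those led by Ier3. Without the 2 cells of highest E, Vgf went from 73.7 to 32.2 CPM and P2rx7 from 60.7 to 32.2 CPM.

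In both groups Ddit3 was high in that class, at 284 CPM in its 12 cells of group 1 and 534 CPM in its 36 cells of group 2, against 19.1 and 20.9 CPM in other cells. Btg2 was at 99.7 CPM in that class, and at 95.6 CPM in its 36 cells of group 2. The 47 members led by Ier2, 33 of them of group 1, had Btg2 at 85.8 CPM (48.0 to 142), beside 14.0 and 22.3 CPM in members led by Junb and Ier3. Those 2 classes were mostly of group 2 (50 of 380 and 49 of 434 cells in group 1), whose members had less Btg2 than members of group 1 (16.7 against 64.2 CPM). For members led by Ier2 the class and the group therefore cannot be told apart here. In those led by Ier2 the level of Ddit3 was 34.3 CPM and that of Cdkn1a 5.72 CPM, from 1 UMI.

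**Figure D5:**
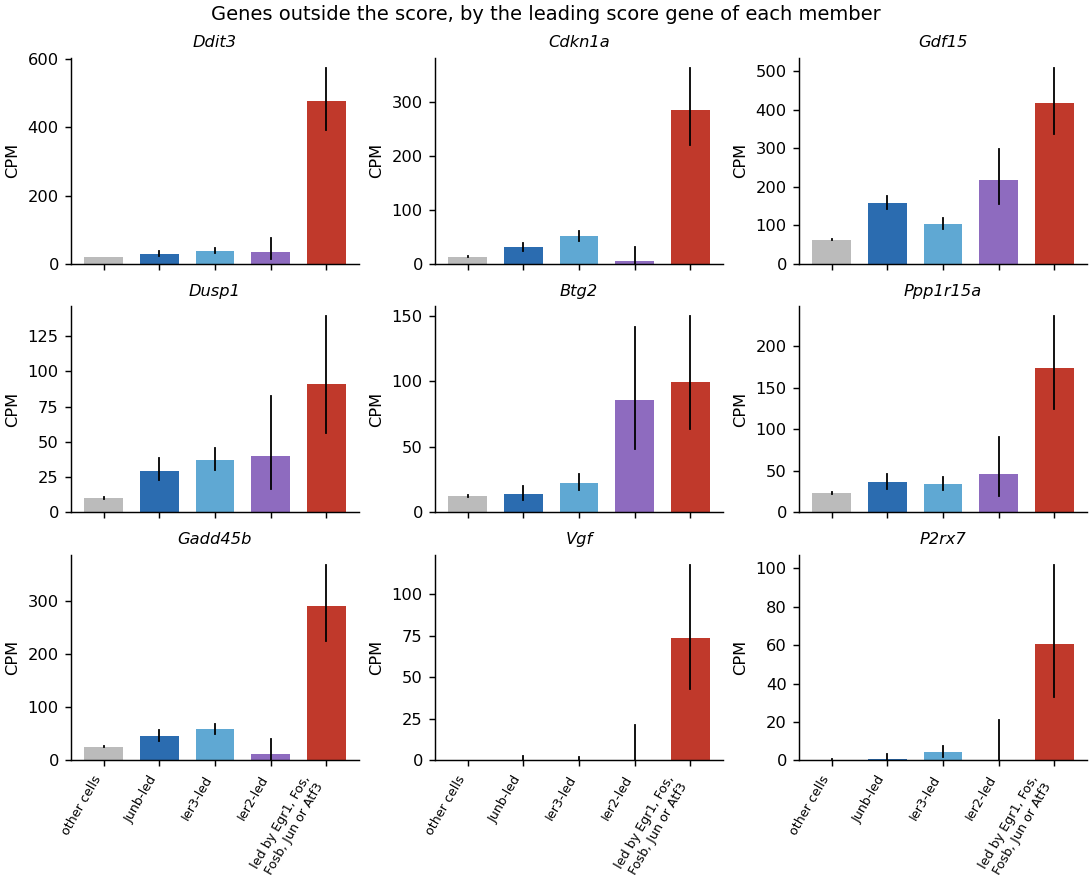
CPM of 9 genes outside the score in other cells and in members led by Junb, Ier3, Ier2 or one of the other 5 score genes (bars), with 95% counting intervals (lines); members with a tie are not drawn. Ddit3, Cdkn1a, Gadd45b, Ppp1r15a, Vgf and P2rx7 are highest in the last class (Ddit3 477 CPM), and Btg2 is also high in members led by Ier2, mostly of group 1 (85.8 CPM).

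Along the score, several genes were highest at its upper end. With all cells ordered by E and divided into 20 steps, Ddit3 was between 12.7 and 30.2 CPM in steps 1 to 19 and at 50.9 CPM in the last, the members. Gdf15 was between 46.8 and 84.5 CPM and at 141 CPM, and Btg2 between 8.44 and 16.0 CPM and at 23.3 CPM. Cells of steps 1 to 4 all had E of 0, so the order of these steps is arbitrary. Dusp1 was between 4.25 and 6.94 CPM in them, at 10.2 CPM in step 10, 20.8 CPM in step 19 and 34.7 CPM in the members. The share of group 1 was between 77.9 and 81.2% in steps 1 to 4, 49.6% in step 10 and 16.9% in the members. This change cannot be told apart from the levels of genes that differ between the groups, such as Sprr1a (between 7.18 and 20.2, then 49.0 and 264 CPM).

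Within the groups, the cells of highest E had the most Ddit3, most of it in few cells. In group 2 it was at 20.9 CPM in other cells, 30.1 CPM in 741 members with E under 20, 42.4 CPM in 118 with E of 20 to 30 and 454 CPM (357 to 569) in 28 with E of at least 30. Of the last class's 75 Ddit3 UMIs 3 cells held 47, and without them the level was 190.5 CPM (127 to 275). In group 1 the values of the 4 classes were 19.1, 61.4, 99.2 and 265 CPM (137 to 462), the last in 9 cells, 3 of which held 10 of the 12 UMIs. Without those 3 the value was 69.2 CPM (8.39 to 250.2), below that of the class before it. Dusp1 was at 11.4, 23.4, 39.1 and 169 CPM in group 2, and at 8.94, 42.6, 76.3 and 265 CPM in group 1. Counting intervals overlapped between E under 20 and E of 20 to 30 for both genes in both groups, and between E of 20 to 30 and E of at least 30 for both genes in group 1. Without the 3 cells with most Dusp1 UMIs, group 2 cells with E of at least 30 were at 96.5 CPM (51.4 to 165). Those of group 1 were then at 36.4 CPM (0.922 to 203), from 1 UMI. The highest class thus rests on few cells for both genes.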

How the data were processed

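One droplet library of mixed clones was read as the deposited filtered matrix of UMI counts per gene and barcode, made by the authors with Cell Ranger 8.0.1 on GRCm39, per the submitters' processing notes; these counts are unnormalized, per the file headers. Cells under 2000 UMIs, under 1000 genes or over 15% mitochondrial UMIs were left out, E was computed, and the 5% of highest E were taken. The members and the gene lists were chosen with earlier results of these data known.

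UMIs were summed over members and over other cells, and over all kept cells, in which a tested gene had at least 10 CPM, the depth-scaled unit. A gene counted as higher or lower from 2-fold, with an exact conditional 95% interval on the same side for the comparison over all cells. Shares carry Clopper-Pearson and sums Poisson intervals. Cells were clustered with scanpy 1.11.5 and leidenalg 0.10.2 without the listed genes (2000 variable genes, 30 components, 15 neighbours, resolution 0.5). The 5 clusters were merged to 2 expression groups by a size-weighted Ward rule, and Scrublet marked doublets at an expected rate of 0.08. Python 3.11.15, numpy 2.4.6, scipy 1.17.1, pandas 2.3.3 and matplotlib 3.10.9 were used. The comparison was tested on simulated data. Promoters are those of RefSeq for GRCm38.p6, matched by symbol.

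Genes were named by rule: the score genes, P2rx7, Vgf and Ubash3a, the 10 highest and 10 lowest ratios, the 10 highest by the lower within-group ratio, and of each list the 3 most abundant genes and the 3 highest and 3 lowest ratios. Atf5 and genes leading clusters, holding motifs or given as absent markers were named after their values were seen. Alternatives were doublet removal, a strict filter (4000 UMIs, 1500 genes, 10%), other top classes, gene minimums and folds, thinning to 3000 UMIs, ranking within groups, portions A and B, other totals and weights, and 3 added later.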

Additional observations from a re-analysis of the deposited data

Results flagged for a closer look

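The 817 barcodes left out by the cell filter also held score-gene UMIs, which no comparison above uses. Their summed level was 336 CPM (300.1 to 375), above the limit that a count of 0 allows and below the 481 CPM of kept cells. The median removed barcode had 1087 UMIs and a mitochondrial share of 11.1%. In the 271 over the mitochondrial maximum the level was 209 CPM (158 to 271), and in the other 546 it was 387 CPM (342 to 437).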

How the results depend on the processing

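The 3 alternatives with Junb and Ier3 left out of the score, with the 10 cells of highest E left out, and with the doublet-like cluster and marked doublets removed were chosen after seeing the data. The 35 genes higher in members became 93 for the highest 1% of cells, 11 with the top 5% taken within each expression group, 120 at a minimum of 2 CPM, 6 at 50 CPM, 252 at 1.5-fold and 9 without Junb and Ier3. The 123 lower genes became 224, 0, 313, 32, 478 and 0 in the same order. Under the other settings the counts were 27 to 47 and 83 to 164.

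The share of members in group 1, 16.9%, was 9.33% under the strict filter, 21.5% for the highest 1%, 48.4% within groups, 21.4% with cells ranked on portion A and 52.5% without Junb and Ier3. The median log2 ratio of the other early transcription factors, 0.63, was 0.88, 0.36 and 0.22 for the highest 1%, within groups and without Junb and Ier3. The cause of these shifts was not tested.

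Of 1687 log2 ratios of 142 named genes under 12 settings, 1297 stayed within their counting interval, and 118 changed sign, 46 of them without Junb and Ier3. Of the ratios past 2-fold, 14 changed sign. Without Junb and Ier3 these were Arhgap15 at 0.090, Cd68 at 1.01, Cela1 at 0.93, Cttnbp2 at 0.18, Cxcl5 at 0.25, Mctp1 at 0.26, Plcb1 at 0.23, Rasip1 at 0.022, Ror2 at 0.21 and Zfp40 at 0.0013. Cd68 was at 1.14 for the highest 1% and 0.53 with portions A and B, and within groups Cela1 was at 0.13 and Hba-a2 at -0.092. At a median of 8 score-gene UMIs per member, depth limits who is a member: 616 of 1018 were shared after thinning to 3000 UMIs. No paired analysis was possible because the data are 1 library with no replicates.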

Other observations

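Of the chemokine and cytokine genes in the NF-kB list, several were higher in members, chosen after their values were seen and all under the 10 CPM minimum over all cells. Cxcl1, a neutrophil attractant, was at 23.6 against 6.19 CPM over all cells and 61.6 against 7.40 CPM in group 1 and 17.6 against 5.19 CPM in group 2, from UMIs in 58 members. Ccl20, a lymphocyte attractant, was at 15.2 against 4.26 CPM over all cells and 39.3 against 3.55 CPM in group 1 and 11.3 against 4.86 CPM in group 2. Csf2, which encodes GM-CSF, was at 14.98 against 2.52 CPM, with 50 of its 52 positive members in group 2, where it was at 16.95 against 4.42 CPM (3.83-fold). The monocyte attractant Ccl2 was at 11.9 against 2.41 CPM, with 29 of 30 in group 2, where it was at 13.6 against 3.84 CPM (3.54-fold). Without the member with most UMIs of the gene, the ratios over all cells were 3.30 for Cxcl1, 3.22 for Ccl20, 5.46 for Csf2 and 4.201 for Ccl2, and in group 2 they were 3.51 for Csf2 and 3.001 for Ccl2. Cxcl5, the one with most UMIs, was lower in members over all cells (79.4 against 186 CPM) but at 372 against 353 CPM in group 1 and 32.6 against 48.3 CPM in group 2, while Tnf and Il6 had 2 and 0 UMIs in members. Cxcl2 was at 2.71 against 0.209 CPM (log2 3.69, 2.65 to 4.70), from 15 UMIs in 5 members, 9 of them in 1 cell, without which the ratio was 5.19 (1.73 to 13.1).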
